A study of Mus musculus with 6 samples.

Results

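The circadian clock genes examined here are the 10 genes Arntl, Clock, Per1, Per2, Per3, Cry1, Cry2, Nr1d1, Nr1d2 and Dbp, taken by name from the 41388 Ensembl genes of the expression table. All 10 were listed in the table. Their RNA was measured in primary hepatocytes of C57BL/6J mice, cultured after collagenase digestion, 24 h after adenovirus encoding β-gal (beta galactosidase, a control protein, 3 libraries, replicates 1, 2 and 3) or ALOXE3 (an epidermal-type lipoxygenase, 3 libraries, replicates 7, 8 and 9). Both groups therefore carried an adenovirus and differed in the encoded protein, and the animals' age and the species of the ALOXE3 sequence are not given in the labels. All libraries come from a single sequencing run, and nothing in the labels ties replicates to separate animals or cultures, so the p-values measure the spread between these libraries, which may be technical. RNA was taken at a single time, and the hour of day and any synchronization of the cells are not given in the sources used here, so these values give levels and not rhythms or phases.

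The clock is a loop of transcription in which ARNTL (BMAL1) and CLOCK bind DNA as a pair at E-boxes and switch on the Per and Cry genes. PER and CRY proteins return to the nucleus and inhibit that pair, and NR1D1 and NR1D2 (REV-ERBα and REV-ERBβ) repress Arntl while ROR proteins activate it. DBP is an output factor that binds D-boxes and carries the rhythm to other genes. In liver the loop times bile acid, glucose and lipid metabolism, and it runs in isolated hepatocytes as well.

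Stretches of 3 members' promoters are shown because they carry, letter for letter, the elements that the proteins of the loop read. RefSeq promoter windows (GRCm38.p6) were found for 9 members with 13 start sites, and none was listed for Per2. In the 250 bases before each start, both strands were searched for the E-box CACGTG, its variant CACGTT (read as AACGTG on the other strand, and differing from the E-box in its last letter), the D-boxes TTATGTAA and TTACGTAA, and the ROR element cores TAGGTCA and TGGGTCA. The E-box was found in Per1 and Cry1, against 6.02% of all 32851 promoter windows. The variant was found in Cry1, Cry2 and Nr1d1, against 3.85%. A D-box was found in Per3 only among the members, in 2 copies, against 0.931% of windows with any copy and 0.0213% with 2 or more. The ROR element cores were found in no member, against 5.38% of windows. In the stretches that follow, each of 100 bases and written 5′ to 3′ on the gene's strand, capitals mark these letters, which are a description of the sequence and not evidence of binding.

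Per1, GRCm38.p6 chr11:69098736-69098835, forward strand, from 213 to 114 bases before an internal start of the gene and in none of its exons, with the E-box in capitals: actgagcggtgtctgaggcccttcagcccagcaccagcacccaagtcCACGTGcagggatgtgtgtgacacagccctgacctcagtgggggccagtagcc

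Cry1, GRCm38.p6 chr10:85185071-85185170, reverse strand, from 116 to 17 bases before the start and outside the listed genes, with the variant and then the E-box in capitals: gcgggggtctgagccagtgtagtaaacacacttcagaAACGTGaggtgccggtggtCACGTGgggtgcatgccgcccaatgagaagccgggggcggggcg

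Per3, GRCm38.p6 chr4:151044793-151044892, reverse strand, from 227 to 128 bases before the start and in no exon, though within the span of Camta1, with both D-boxes in capitals: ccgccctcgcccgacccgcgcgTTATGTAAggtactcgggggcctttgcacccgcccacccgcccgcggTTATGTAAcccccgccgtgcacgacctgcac

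The values are RPKM, reads per kilobase of exon scaled by library size, as the authors deposited them. Library sizes derived from the steps of the values ran from 25521908 to 32431318 reads. Aloxe3 itself was at 1.74 to 2.06 RPKM in the β-gal libraries and at 42.3 to 56.3 RPKM in the Aloxe3 libraries, as the labels say. The hepatocyte markers Alb (4362 to 4552 RPKM) and Hnf4a (25.4 to 29.3 RPKM) were high, while Tat, Cps1 and Cyp2e1, enzymes of the differentiated hepatocyte, were each low in every library. Tat was at 0.193 to 0.346 RPKM with β-gal and 0.438 to 0.661 RPKM with Aloxe3, and Cps1 at 0.915 to 1.05 and 1.29 to 1.64 RPKM, without overlap in either gene (Cps1 adjusted p = 0.161 by limma and 0.0201 by voom, Tat not tested). Apoa1 was at 241 to 246 RPKM with β-gal and 218 to 235 RPKM with Aloxe3, and Serpina1a at 51.5 to 53.5 and 47.9 to 48.5 RPKM, lower without overlap (limma adjusted p = 0.349 and 0.262). The groups overlapped for the other 4 hepatocyte markers, and the 8 summed to 4827 to 4878 and 4677 to 4822 RPKM. Of 6 Kupffer cell markers, 5 were above 0 in every library and their summed level was 150.3 to 153 RPKM with β-gal and 133 to 146 RPKM with Aloxe3, without overlap and nearly all of it Cd68. Adgre1 (1.47 to 1.99 RPKM), Csf1r (1.11 to 1.68 RPKM) and Marco (0.705 to 1.18 RPKM) were above 0 in every library. Clec4f and Vsig4 averaged at most 0.0705 RPKM in either group. All 5 endothelial markers were above 0, with sums of 24.5 to 28.5 and 24.4 to 28.4 RPKM. The 6 stellate markers summed to 3.55 to 3.78 and 3.15 to 3.62 RPKM with Lrat listed at 0, and the 4 cholangiocyte markers to 78.2 to 93.5 and 74.7 to 93.0 RPKM. Nearly all of the cholangiocyte sum was Krt19 and Sox9, while Krt7 averaged 0.126 RPKM over all libraries. Epcam was at 0.398 to 0.456 RPKM with β-gal and 0.154 to 0.334 RPKM with Aloxe3, without overlap and not tested. The groups overlapped for the other cholangiocyte markers. The part of these cells in the clock values was not tested. Replicate 9 stood apart from the other 2 Aloxe3 libraries (chi-square per degree of freedom of 10.3 and 11.3 over genes, against 3.87 to 6.23 for the other pairs within a group), and the sign of the differences of Per1, Cry1 and Nr1d1 turned without it.

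None of the tested clock genes passed the test in hepatocytes overexpressing Aloxe3. Clock, the most abundant, averaged 17.1 RPKM in the β-gal libraries and 17.5 in the Aloxe3 libraries, and the largest differences in mean were those of Per2 (1.10-fold) and Per3 (1.14-fold), both toward higher values with Aloxe3. The test was limma on log2(RPKM + 1) with Benjamini-Hochberg adjustment, run on the 12693 genes whose mean reached 0.5 RPKM. Of the 10 members 9 were tested, and Dbp lay under that level. Of the 9, 0 had an adjusted p under 0.05 and 0 an unadjusted p under 0.05, against 0.394% and 12.7% of all tested genes. With voom, a limma fit on the reads derived from the RPKM values, 0 of the 9 were called, against 1.22% of the 12688 genes in that fit, and 1 of the 9 (Per3) had an unadjusted p under 0.05, against 15.0% of them. With 9 genes, these counts lie near the background shares. The log2 fold changes of the 9 had a median of 0.036 beside 0.0049 over all tested genes, with 8 of the 9 above 0 beside 52.4% of all tested genes. The signs of Arntl, Per1, Cry1 and Nr1d1 turned when single libraries were left out.

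A p above the threshold does not show equal levels, so the 95% confidence intervals bound the change. On the log2(RPKM + 1) scale, on which changes of low genes come out too small, the 9 intervals ran from a lowest bound of -0.20 to a highest of 0.24, and each included 0. As folds from voom, the lowest bound was 0.88 and the highest 1.29. With the spread measured here, a member needed a limma log2 fold change of 0.32 (Cry2) to 0.61 (Per1) to be called. This is 1.25-fold to 1.52-fold in RPKM + 1. The change needed in RPKM itself is larger, most of all for low genes such as Per2 and Per3.

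**Figure D1:**
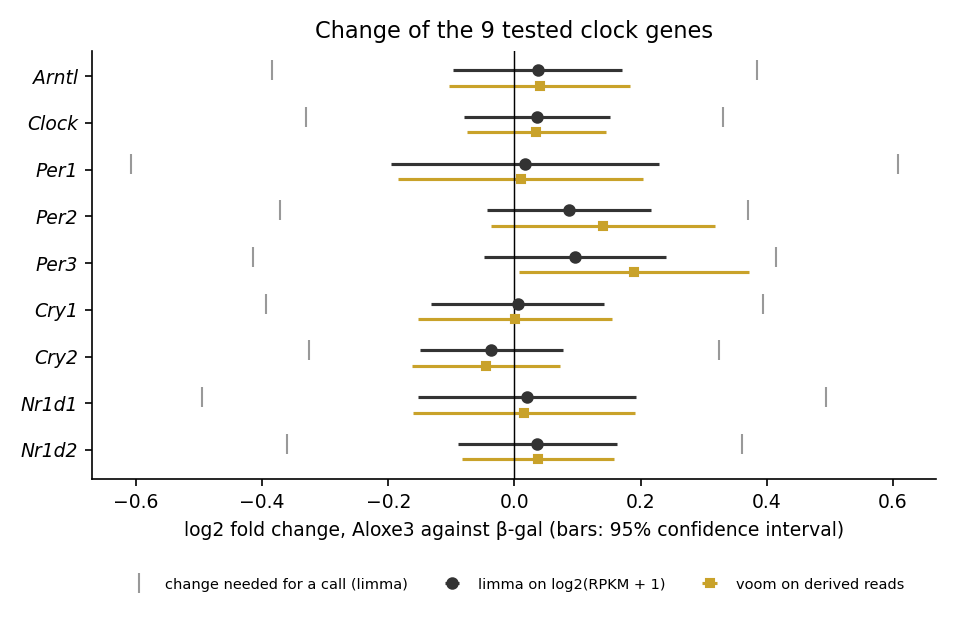
Log2 fold change of each tested clock gene, Aloxe3 against β-gal (3 libraries each), with 95% confidence intervals as bars, by limma on log2(RPKM + 1) (circles) and by voom on derived reads (squares), and grey ticks at the change each gene needed to be called. Every limma interval includes 0, and the bars reach at most 0.24 upward on that scale.

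Arntl (chromosome 7, 113207465 to 113314126, GRCm38) encodes the partner that CLOCK needs to bind DNA. It was at 8.48, 8.12 and 7.52 RPKM in β-gal replicates 1, 2 and 3 and at 7.88, 8.85 and 8.10 RPKM in Aloxe3 replicates 7, 8 and 9. The groups overlapped, with the highest value in replicate 8 and the lowest in replicate 3. Aloxe3 minus β-gal came to 0.04 in log2 (SE 0.058, limma adjusted p = 0.827).

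Clock (chromosome 5, 76209868 to 76304792) encodes the other protein of the activating pair. Its values were 18.2, 16.4 and 16.6 RPKM with β-gal and 16.9, 17.4 and 18.2 RPKM with Aloxe3, with the highest values in a library of each group, replicates 1 and 9. The log2 difference was 0.04 (SE 0.050, limma adjusted p = 0.801), and with 3233 to 4382 reads per library Clock was the most deeply counted member. The ratio of Clock to Arntl within a library was 2.12 ± 0.10 with β-gal and 2.12 ± 0.15 with Aloxe3 (SD, n = 3 each). Npas2, a relative of Clock that can take its place, was at 1.32 ± 0.02 and 1.45 ± 0.11 RPKM (SD, n = 3 each), without overlap (limma adjusted p = 0.589), and Clock was 11.6 to 14.0 times Npas2 over the 6 libraries at the deposited exon lengths.

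Among the inhibitors, Per1 (chromosome 11, 69095217 to 69109960) is the Period gene known for its fast response to hormones and cAMP. It was at 5.34, 5.63 and 5.57 RPKM with β-gal and at 5.15, 5.04 and 6.71 RPKM with Aloxe3. Replicate 9 was the highest of the 6 libraries, while replicates 7 and 8 were the lowest. Per1 differed by 0.02 in log2 (SE 0.091, limma adjusted p = 0.955), and by -0.10 (SE 0.043, adjusted p = 0.43) without replicate 9, so its direction turned on that library.

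Per2 (chromosome 1, 91415982 to 91459324), whose protein is a main inhibitor in the loop, was at 1.59, 1.46 and 1.64 RPKM with β-gal and at 1.68, 1.79 and 1.69 RPKM with Aloxe3. All 3 Aloxe3 libraries lay above all 3 β-gal libraries, with replicate 7 the nearest to replicate 3. In log2 the difference was 0.09 (SE 0.056, limma adjusted p = 0.553), and 0.14 (SE 0.082, adjusted p = 0.462) with voom. Without overlap, the two-sided p of an exact permutation test of Per2 is fixed at 0.1, the smallest that 3 libraries against 3 allow.

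Per2 was the only 1 of the 9 tested members whose groups did not overlap (11.1%), against 19.9% of all tested genes in either direction and 11.2% in this direction. Under quantile normalization its groups overlapped.

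Per3 (chromosome 4, 151003652 to 151044665), the Period gene that mice can lose with little effect on rhythm, was at 0.935, 0.927 and 1.07 RPKM with β-gal and at 1.16, 1.13 and 1.06 RPKM with Aloxe3. The groups met only where replicate 3 (β-gal) exceeded replicate 9 (Aloxe3). It differed by 0.10 in log2 (SE 0.062, adjusted p = 0.553) by limma and by 0.19 (SE 0.085, adjusted p = 0.311) by voom, where the 95% interval of the fold ran from 1.01 to 1.29. Per3 rested on 269 to 329 reads per library.

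Of the summed RPKM of the Period genes, Per1 made up 63.3% to 70.9% over the 6 libraries, Per2 17.9% to 22.5% and Per3 11.2% to 14.5%. The groups overlapped for each share.

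Cry1 (chromosome 10, 85131700 to 85185064), the cryptochrome that represses most strongly, was at 7.51, 6.97 and 6.84 RPKM with β-gal and at 6.64, 7.07 and 7.71 RPKM with Aloxe3. Both the lowest and the highest library belonged to Aloxe3. The difference in log2 came to 0.01 (SE 0.059, limma adjusted p = 0.981), and to -0.04 without replicate 9.

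Cry2 (chromosome 2, 92403646 to 92434043) was at 5.56, 5.33 and 5.34 RPKM with β-gal and at 5.28, 5.54 and 4.95 RPKM with Aloxe3. It was the only tested member with a negative difference, -0.04 in log2 (SE 0.049, limma adjusted p = 0.795), which was -0.00027 without replicate 9, and its groups overlapped. Cry1 made up 56.8% ± 0.64 of the summed RPKM of both cryptochromes with β-gal and 57.6% ± 2.9 with Aloxe3 (SD, n = 3 each), with 60.9% in replicate 9. The 5 Per and Cry genes together were at 0.821 ± 0.032 and 0.809 ± 0.028 of the sum of Clock and Arntl (SD, n = 3 each) at the deposited exon lengths, and the groups overlapped.

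**Figure D2:**
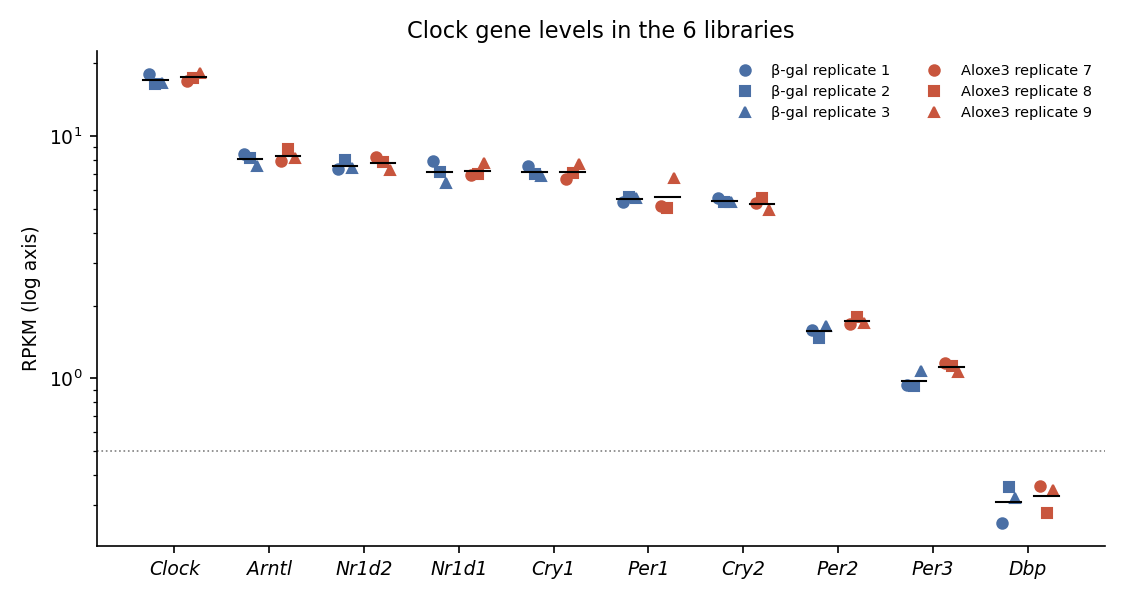
RPKM (log axis) of the 10 clock genes in each library, β-gal in blue and Aloxe3 in red, with a marker shape per replicate, black bars at group means and a dotted line at the 0.5 RPKM below which genes were not tested. Per2 is the only member whose 3 Aloxe3 points all lie above the β-gal points, and Dbp sits below the dotted line in every library.

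Of the REV-ERB receptors, heme-binding repressors of Arntl, Nr1d1 (chromosome 11, 98767932 to 98775333) was at 7.89, 7.09 and 6.40 RPKM with β-gal and at 6.93, 6.97 and 7.77 RPKM with Aloxe3. The β-gal libraries spanned the Aloxe3 ones. Nr1d1 differed by 0.02 in log2 (SE 0.074, limma adjusted p = 0.936), and by -0.03 without replicate 9.

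Nr1d2 (chromosome 14, 18204054 to 18239127) was at 7.30, 7.97 and 7.42 RPKM with β-gal and at 8.23, 7.85 and 7.29 RPKM with Aloxe3, with the highest and the lowest library both from Aloxe3. Its log2 difference was 0.04 (SE 0.054, limma adjusted p = 0.815). Nr1d1 was 45.7% to 51.9% of the summed RPKM of the pair over the 6 libraries.

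Dbp (chromosome 7, 45705088 to 45710203), the D-box activator, was at 0.253, 0.356 and 0.321 RPKM with β-gal and at 0.359, 0.279 and 0.347 RPKM with Aloxe3. These values are 24 to 34 reads per library, and the groups overlapped. The exact 95% Poisson interval of the lowest library, replicate 1, ran from 0.162 to 0.376 RPKM and covered the values of all other libraries, though it covers counting error only. With voom and no filter on low values, a fit added after the data were seen that called 0.688% of 24983 genes, the fold of Dbp was 1.05 with an interval from 0.73 to 1.51 (adjusted p = 0.937). The reads cannot tell changes of Dbp inside that interval apart, and the change Dbp needed for a call was not computed.

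Of the other factors that act at D-boxes, Hlf, an activator, was at 0.628 to 0.808 RPKM with β-gal and 0.833 to 1.01 RPKM with Aloxe3, without overlap (limma adjusted p = 0.44, voom adjusted p = 0.234) and above Dbp in each library, and Tef and Nfil3 were far more abundant. Tef, a relative of Dbp that also activates, was at 5.45 ± 0.35 and 5.30 ± 0.19 RPKM (SD, n = 3 each), or 14.9 to 20.3 times Dbp within a library. Nfil3, which represses from D-boxes, was at 36.0 ± 2.6 and 33.3 ± 1.9 RPKM (SD, n = 3 each), or 86.6 to 138 times Dbp and 4.63 to 5.74 times the sum of Dbp, Tef and Hlf. Bhlhe40, which represses from E-boxes, was at 117 ± 8.1 and 113 ± 2.2 RPKM (SD, n = 3 each) and was 12.8 to 16.6 times Arntl at the deposited exon lengths. The groups overlapped for all 19 ratios, sums and shares computed among these genes, including each of those given here.

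By level over all 6 libraries the members ran in the order Clock, Arntl, Nr1d2, Nr1d1, Cry1, Per1, Cry2, Per2, Per3 and Dbp, from 17.3 ± 0.77 down to 0.319 ± 0.044 RPKM (SD over 6 libraries). Neighbours from Arntl through Cry2 overlapped in range, while Clock was apart from Arntl, Cry2 from Per2, Per2 from Per3 and Per3 from Dbp. Among tested genes Clock was at the 73.2nd percentile of mean RPKM, Arntl at the 54.0th and Per3 at the 13.5th.

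The order depends on the exon length behind RPKM. The smallest exon length that turns the deposited values of Arntl into whole reads is 2904 bases, where the GENCODE M21 annotation has 7523, and for Clock it is 7478 bases against 13727. With the M21 lengths, an alternative added after the data were seen, Clock was at 9.41 RPKM and Arntl at 3.15 RPKM, between Cry2 and Per2. Cry1, Nr1d2 and Dbp also had other lengths, and the remaining 5 members had the same length. Ratios between genes move with these lengths: with those of M21, Clock was 6.31 to 7.65 times Npas2 and 2.77 to 3.17 times Arntl, Bhlhe40 was 23.0 to 29.9 times Arntl, and the sum of the Per and Cry genes was 1.53 to 1.66 times that of Clock and Arntl, above 1 where the deposited values put it below. A ratio of RPKM between groups for 1 gene does not depend on its length, whereas a difference in log2(RPKM + 1) does through the pseudocount.

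The spread between replicates exceeded what counting gives in both groups for Arntl, Clock, Cry1, Nr1d1 and Nr1d2, and in neither for Per2 and Dbp. Clock had a coefficient of variation of 5.64% with β-gal and 3.72% with Aloxe3, where counting alone gives 1.58% and 1.67%. Nr1d1 varied most among the β-gal libraries of the tested members, by 10.5% against 3.80% from counting, and Per1 most among the Aloxe3 libraries, by 16.6% against 3.40%. For Dbp the measured 17.0% and 13.1% were below the 18.7% and 19.5% of counting.

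**Figure D3:**
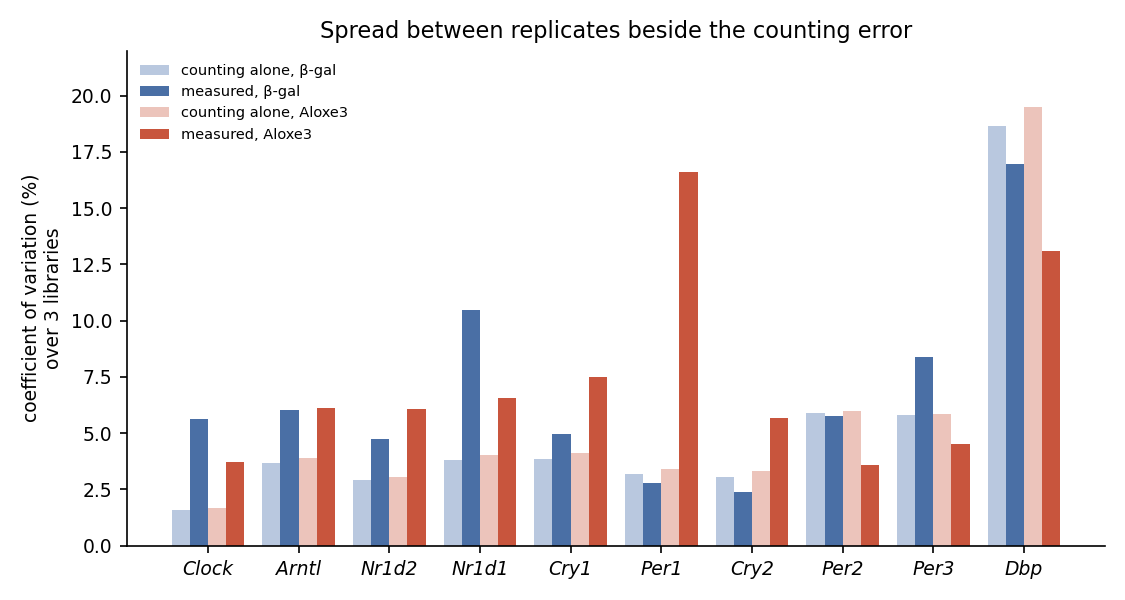
Coefficient of variation over 3 libraries (percent, from 0) of each clock gene's RPKM, with β-gal in blue and Aloxe3 in red, beside the paler bars of the variation that counting reads gives alone. Per1 reaches 16.6% among the Aloxe3 libraries, and Dbp lies below its counting error in both groups.

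Per1 is a neighbour of Aloxe3 itself. On chromosome 11 of GRCm38, 15935 bases separate the end of Per1 from the start of Aloxe3 (69125896 to 69149115, forward strand like Per1). Aloxe3 rose 24.7-fold in mean RPKM, by 4.05 on the log2(RPKM + 1) scale (SE 0.10, limma adjusted p = 4.7e-06), and Per1 differed by 0.02 with a 95% interval from -0.20 to 0.23. The Aloxe3 libraries received an adenovirus encoding ALOXE3, and reads from it and from the chromosomal gene cannot be told apart in these values. Of 6 other genes within 50 kb, 3 were tested. Vamp2, upstream of Per1 and encoding a vesicle fusion protein, differed by 0.13 in log2 (SE 0.074, limma adjusted p = 0.52). Alox8, a lipoxygenase gene beyond the other end of Aloxe3, was the only 1 of the 3 to rise, from 0.0503 ± 0.017 to 9.59 ± 1.7 RPKM (SD, n = 3 each, limma adjusted p = 1.3e-05), on 4 to 8 reads per β-gal library. Between Per1 and Aloxe3 lie Hes7, at no more than 0.105 RPKM in any library, and 9130213A22Rik, at no more than 0.0624 RPKM.

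**Figure D4:**
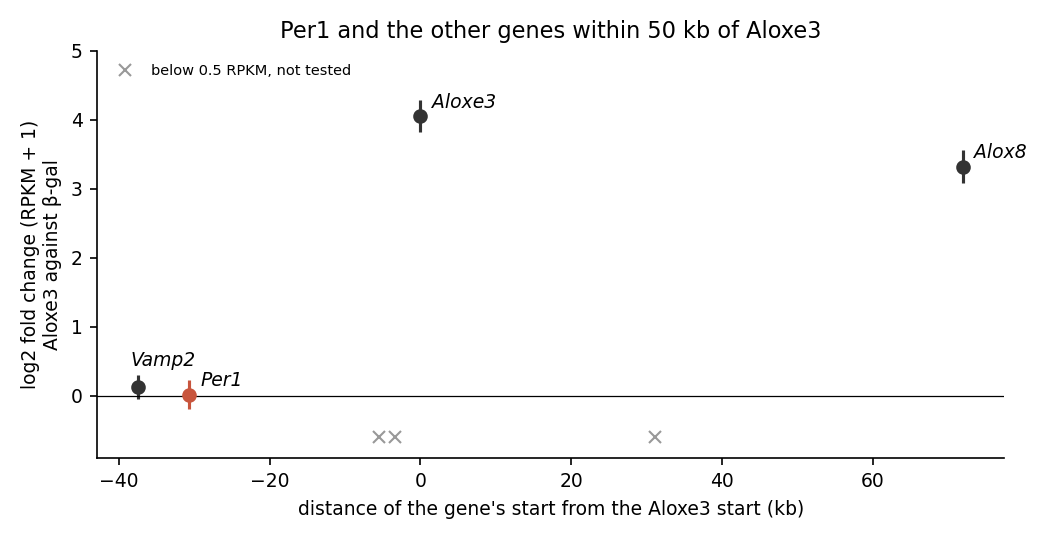
Log2 fold change on the log2(RPKM + 1) scale, with 95% confidence intervals, of Per1 (red) and the other tested genes within 50 kb of Aloxe3, by the distance of each gene's start from that of Aloxe3 in kb, with crosses for genes under 0.5 RPKM, drawn at an arbitrary height. Per1, at 0.02, lies near the line of no change, and Aloxe3, whose reads can include those of the adenovirus, is at 4.05.

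Some members share exon bases with a gene on the other strand, and the library kit as described does not mark strand. Nr1d1 shares 263 bases (8.55% of its exons) with Thra, the thyroid hormone receptor α gene, at 2.66 to 3.22 RPKM with β-gal and 3.39 to 3.40 RPKM with Aloxe3 without overlap (log2 difference 0.15, SE 0.061, limma adjusted p = 0.366). Dbp shares 539 bases (18.0%) with Sphk2, a sphingosine kinase gene at 15.5 to 18.4 RPKM, and Cry2 shares 295 bases (4.67%) with D930015M05Rik at 0.207 to 0.494 RPKM. The authors counted unambiguous reads only, and reads in these stretches cannot be assigned to a strand.

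The wider pathway was examined through 5 lists of 66 other genes, of which 56 were tested. None of the 56 passed an adjusted p of 0.05 by limma, 5 had an unadjusted p under 0.05 and 0 passed with voom, against 0.394%, 12.7% and 1.22% of all genes in those fits. Groups did not overlap for 10 of the 56 (17.9%), near the 19.9% of all tested genes. Their log2 fold changes had a median of 0.04, with 36 above 0 and 20 below.

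Among the 9 other genes of the loop, all tested, 0 rose and 0 fell, with a median log2 fold change of 0.02. The smallest p belonged to Hlf, a further D-box activator (log2 fold change 0.15, SE 0.073, adjusted p = 0.44), Ciart, an inhibitor of the CLOCK pair (0.18, SE 0.092, adjusted p = 0.466), and Nfil3 (-0.11, SE 0.062, adjusted p = 0.509). Of 13 genes for the phosphorylation and breakdown of clock proteins, 11 were tested and none passed, with a median of -0.01. They were led by the kinase gene Csnk1d at -0.08 (SE 0.036, adjusted p = 0.416), the ubiquitin ligase gene Fbxw11 at -0.07 (SE 0.048, adjusted p = 0.583) and Csnk1a1 at 0.05 (SE 0.033, adjusted p = 0.583). Usp2 and Fbxl21 were under the level for testing.

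All 12 genes of coregulators were tested, none passed, and their median was 0.08. The histone methyltransferase gene Kmt2a (0.12, SE 0.048, adjusted p = 0.348), the deacetylase gene Sirt1 (0.15, SE 0.066, adjusted p = 0.407) and Nono (0.10, SE 0.048, adjusted p = 0.44) had the smallest p. Among 12 genes that feed signals into the clock, all tested and none past the threshold (median 0.03), the serum response factor gene Srf (-0.16, SE 0.043, adjusted p = 0.244) and the glucocorticoid-induced gene Tsc22d3 (0.13, SE 0.059, adjusted p = 0.421) came before Dusp1 (0.13, SE 0.067, adjusted p = 0.478).

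Of 20 genes through which the clock acts in liver, 12 were tested and none passed, with a median of 0.05. The kinase gene Wee1, which holds cells before mitosis and is driven from E-boxes, had the largest log2(RPKM + 1) difference of the 56 tested genes of the lists. It was at 5.14, 5.10 and 5.75 RPKM with β-gal and at 6.14, 7.27 and 7.82 RPKM with Aloxe3, without overlap (log2 fold change 0.35, SE 0.082, adjusted p = 0.194 from limma and 0.0621 with voom). Tns2 was at 24.4 ± 0.69 and 26.6 ± 0.57 RPKM (log2 fold change 0.12, SE 0.037, adjusted p = 0.285). The 8 output genes not tested included Cyp7a1, the rate-limiting enzyme of bile acid synthesis, listed at 0 in every library, and the gluconeogenic genes Pck1 (at most 0.106 RPKM) and G6pc (at most 0.157 RPKM). Fewer cells of a type and less RNA per cell cannot be told apart in bulk libraries such as these.

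**Figure D5:**
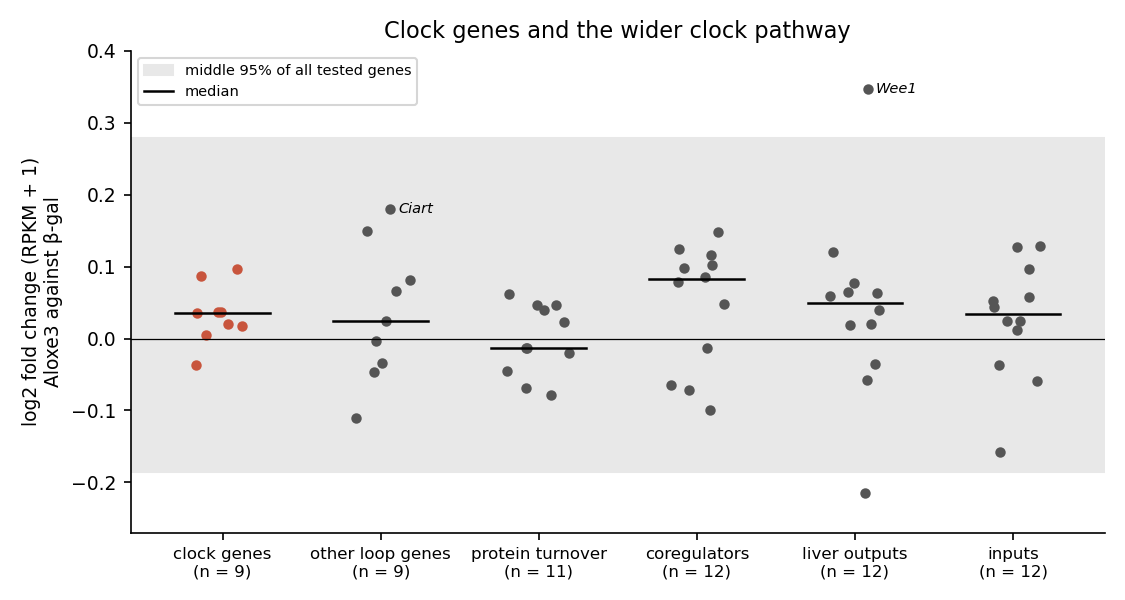
Log2 fold change on the log2(RPKM + 1) scale of the 9 tested clock genes (red) and the tested genes of 5 lists of the wider pathway (grey), with bars at each median and a shaded band holding the middle 95% of all tested genes. The clock genes lie between -0.04 and 0.10, inside the band from -0.19 to 0.28, and Wee1 lies above it at 0.35.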

How the data were processed

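RNA from 6 hepatocyte samples was poly-A selected and sequenced as single reads of 50 bases. The authors aligned reads with STAR 2.0.4b to Ensembl release 76 (GRCm38.p2), used featureCounts 1.4.5 to count reads with a single alignment and no ambiguity, and deposited RPKM values. Versions are from the submitters' processing notes and the study's methods, and how counts became RPKM is not given in the sources used here. Symbols and coordinates come from GENCODE M21 (GRCm38), in which 40340 identifiers matched. Library sizes and reads per gene were derived from the whole-number steps of the values (tolerance 0.01 read). Where the annotated exon length gave no whole reads, the smallest length that did was used, so such reads are known up to a common factor.

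Log2(RPKM + 1) was fitted with limma (version 3.58.1, under R 4.3.3, with a trended eBayes prior) for the 12693 genes whose mean reached 0.5 RPKM, with Benjamini-Hochberg adjustment over all of them and a threshold of 0.05. The scripts were tested on simulated data. Alternatives were a pseudocount of 0.1, no filter, a filter at 5 RPKM, quantile normalization, rescaling to a shared median, eBayes without trend, voom on derived reads with TMM factors (trimmed means of log ratios, computed here), and each library left out. Voom with no filter, and the order and ratios with M21 exon lengths, were added after the data were seen. Genes named outside the members are those past the threshold or, with none, the 3 with the smallest p in each list, and tested genes within 50 kb of Aloxe3 or overlapping a member. Other named genes and the ratios were picked with their values in view. The members and lists were chosen with earlier results of these data known. Some genes of the lists are counted but not reported here by name.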

Additional observations from a re-analysis of the deposited data

How the results depend on the processing

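The count of clock genes past the threshold was 0 under all 14 alternatives, and the smallest adjusted p of any member was 0.311 (Per3 with voom). Among all genes, 50 were called by limma, 7 with no filter, 155 with voom, 172 with voom and no filter (added after the data were seen), and 6 to 19 with a library left out. The other clock pathway genes called were 0, except 1 with voom and no filter. Members whose groups did not overlap numbered 2 after rescaling to the same median, 0 after quantile normalization, 2 with voom (Per2 and Per3 in both cases of 2), and 1 to 3 with a library left out, which cannot make groups overlap that did not. They were 3 without Aloxe3 replicate 9 (Per2 and Per3 higher, Per1 lower), and 2 without β-gal replicate 1 (Clock and Per2), without β-gal replicate 3 (Per2 and Per3) and without Aloxe3 replicate 8 (Per2 higher, Cry2 lower). The share of all tested genes without overlap (19.9%) was computed only for the 6 libraries as deposited. These counts therefore have no background share beside them and are not read as a result. Groups of 2 against 3 libraries also separate more easily than 3 against 3.

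Of 133 alternative values for single members, 14 had the other sign, none of them past the threshold, among them Dbp (no test) at -0.012 without β-gal replicate 1. The log2 fold change of Cry1 was -0.0072 after rescaling, -0.0027 after quantile normalization and -0.010 with voom and no filter, and that of Per1 was -0.00047 with voom and no filter. With a library left out the range was -0.0069 to 0.072 for Arntl, -0.096 to 0.080 for Per1, -0.044 to 0.050 for Cry1 and -0.046 to 0.086 for Nr1d1, and the cause was not tested. Per2 and Per3 have no value under the filter at 5 RPKM, and Dbp has a value with no test, or with no filter. No paired analysis was possible because the labels do not say whether libraries of the groups were paired. Depth limits Dbp most, at 24 to 34 reads per library.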
